A study of Mus musculus with 81 samples.

Results

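The 9 genes Cd79a, Cd79b, Ighm, Ighd, Ms4a1, Cd22, Blk, Pax5 and Ebf1, which are named here as B-lineage genes, were read in bulk RNA sequencing of mouse thymic lymphomas and normal thymus. They are 9 of the 51826 genes in the deposited table, and all 9 were found by symbol. The genes were chosen by their CPM levels in these same samples, so the levels are given as a description and no test of them is read as support. Each level is in CPM, a count scaled to the same total in every library, for a library or for a mouse after its biopsies were summed, and the mouse is the replicate. The T-lineage genes of the same library, led by Cd3e, were set beside the B-lineage genes throughout.

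All mice were C57BL/6 x 129S4Sv/Jae animals that carried Plk4(Col1a1), rtTA(Rosa) and centrin-GFP(Rosa), so the normal thymuses shared these alleles with the lymphomas. The groups were 8 untreated p53+/+ normal thymuses (8 libraries), 10 untreated p53-/- lymphomas (23 libraries), 9 p53-/- lymphomas of mice given doxycycline for 2 weeks from 30 days of age (18 libraries), and 12 p53+/- lymphomas of mice given the same treatment (31 libraries). The ages at which tissue was taken are not given in the labels, and the last group differs from the untreated one in both p53 genotype and treatment. A single untreated p53+/- normal thymus was kept out of the groups compared and joined the normal group in 1 alternative only. Where a value is given for each of the 3 lymphoma groups, the order is the one just used.

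Developing B cells are built by a small set of transcription factors, among which Ebf1 starts the programme and Pax5 fixes it. They then assemble a receptor from an immunoglobulin heavy chain, a light chain and the signalling pair Cd79a and Cd79b. Each B cell joins its own V segments, so a clone carries the same segments in all its cells while a mixed population carries many. The thymus holds mostly T-lineage cells, together with a small resident population of B cells, and thymic lymphomas of p53-deficient mice are usually of the T lineage.

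RefSeq promoter sequences (GRCm38.p6, 250 bases before to 50 after a start) were on hand for 4 of the 9 genes, and 3 are shown: those of Cd79a and Cd22, which held a match to a motif searched, and that of Pax5, the member with the highest ratio to normal thymus in the tumour of mouse 881. Capitals mark matches on either strand to the octamer ATTTGCAT, the EBF core CCCNNGGG or the E-box CAGGTG. These motifs occur in 1.74%, 13.7% and 20.2% of the 32851 promoters of the same length.
Cd79a, chr7:24897247-24897546, plus strand: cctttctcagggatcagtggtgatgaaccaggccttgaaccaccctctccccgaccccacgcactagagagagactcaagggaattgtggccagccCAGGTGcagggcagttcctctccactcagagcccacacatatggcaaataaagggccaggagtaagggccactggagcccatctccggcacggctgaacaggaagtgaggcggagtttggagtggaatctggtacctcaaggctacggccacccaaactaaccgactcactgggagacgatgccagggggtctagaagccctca
Cd22, chr7:30878979-30879278, minus strand: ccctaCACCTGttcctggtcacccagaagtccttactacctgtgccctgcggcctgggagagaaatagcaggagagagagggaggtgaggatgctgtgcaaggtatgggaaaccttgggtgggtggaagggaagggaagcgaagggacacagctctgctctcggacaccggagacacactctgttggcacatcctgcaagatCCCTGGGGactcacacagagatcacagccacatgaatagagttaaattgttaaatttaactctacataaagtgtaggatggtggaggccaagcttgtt
Pax5, chr4:44710645-44710944, minus strand: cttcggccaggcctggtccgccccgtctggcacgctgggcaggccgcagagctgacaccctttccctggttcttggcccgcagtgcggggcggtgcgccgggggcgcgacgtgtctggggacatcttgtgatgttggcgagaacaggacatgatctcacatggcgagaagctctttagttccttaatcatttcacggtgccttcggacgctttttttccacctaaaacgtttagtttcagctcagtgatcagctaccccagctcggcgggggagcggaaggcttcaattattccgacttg
The Cd79a window held an E-box that starts at position -154, counted from the start of the RefSeq entry, which is not the GENCODE gene start given with each gene's values. The Cd22 window held an EBF core at -48 and an E-box at -245, the latter on the opposite strand and so written CACCTG. No match was found in the Pax5 window or in either of the 2 windows of Ebf1, and no window held the octamer. A match is a run of letters and says nothing of binding. The genes Cd79b, Ms4a1, Blk, Ighm and Ighd are named only.

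Library totals ran from 1.03 M to 26.87 M expected counts, and 9 of 10, 4 of 9 and 3 of 12 mice of the 3 lymphoma groups and 4 of 8 normal mice were male. Both a normal thymus and a lymphoma stood apart in tissue and lineage markers. In 1 normal thymus, that of mouse 387, all 18 T-lineage genes lay below the other 7 normal thymuses and their summed level was 1801 CPM, against 11230 to 17320 CPM in the others. All 7 thymic epithelial genes were below those samples too (summed 90.2 CPM against 1115 to 2061 CPM), and the summed level of 8 fat genes was 8172 CPM against 863 to 3984 CPM. In 1 untreated p53-/- lymphoma, that of mouse 881, the T-lineage genes summed to 545 CPM, with 17 of 18 below those 7 normal thymuses and Zap70 above them. The calls of the 9 genes and of the gene lists against normal thymus are therefore given with and without mouse 387. In bulk samples, fewer cells of a type and less RNA per cell cannot be told apart.

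The signalling pair Cd79a and Cd79b carries the receptor's signal into the cell. Cd79a (ENSMUSG00000003379, chr7:24897381-24902197, plus strand, GRCm38) had a lowest, median and highest level of 21.6, 36.3 and 304.5 CPM in the 8 normal thymuses. The corresponding levels were 0.162, 1.27 and 846 CPM in untreated p53-/- lymphomas, 0.871, 2.64 and 10.3 CPM in treated p53-/- lymphomas, and 0.428, 2.54 and 35.4 CPM in treated p53+/- lymphomas. All 9 treated p53-/- lymphomas lay below every normal thymus, as did 9 of 12 treated p53+/- and 8 of 10 untreated p53-/- lymphomas. The 2 untreated tumours outside that range were mouse 881 and mouse 98, the latter at 114 CPM, while the normal maximum was mouse 387 and the next normal thymus stood at 51.0 CPM.

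Cd79b (ENSMUSG00000040592, chr11:106311341-106314762, minus strand) ran from 18.9 to 187 CPM in normal thymus, with a median of 33.9 CPM. Its median was 5.30, 5.63 and 10.1 CPM in the 3 lymphoma groups. Cd79a and Cd79b were held in a narrow ratio in normal thymus and not in the lymphomas. The normal thymuses had 0.615 to 1.05 Cd79b counts per Cd79a count, mouse 881 had 0.599, and the untreated p53-/- tumour of mouse 202 had 31.5, with Cd79b at 24.7 CPM and Cd79a at 0.783 CPM. The treated p53-/- tumour of mouse 497 had a ratio of 16.0, with Cd79b at 45.9 CPM and Cd3e at 429 CPM.

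**Figure D1:**
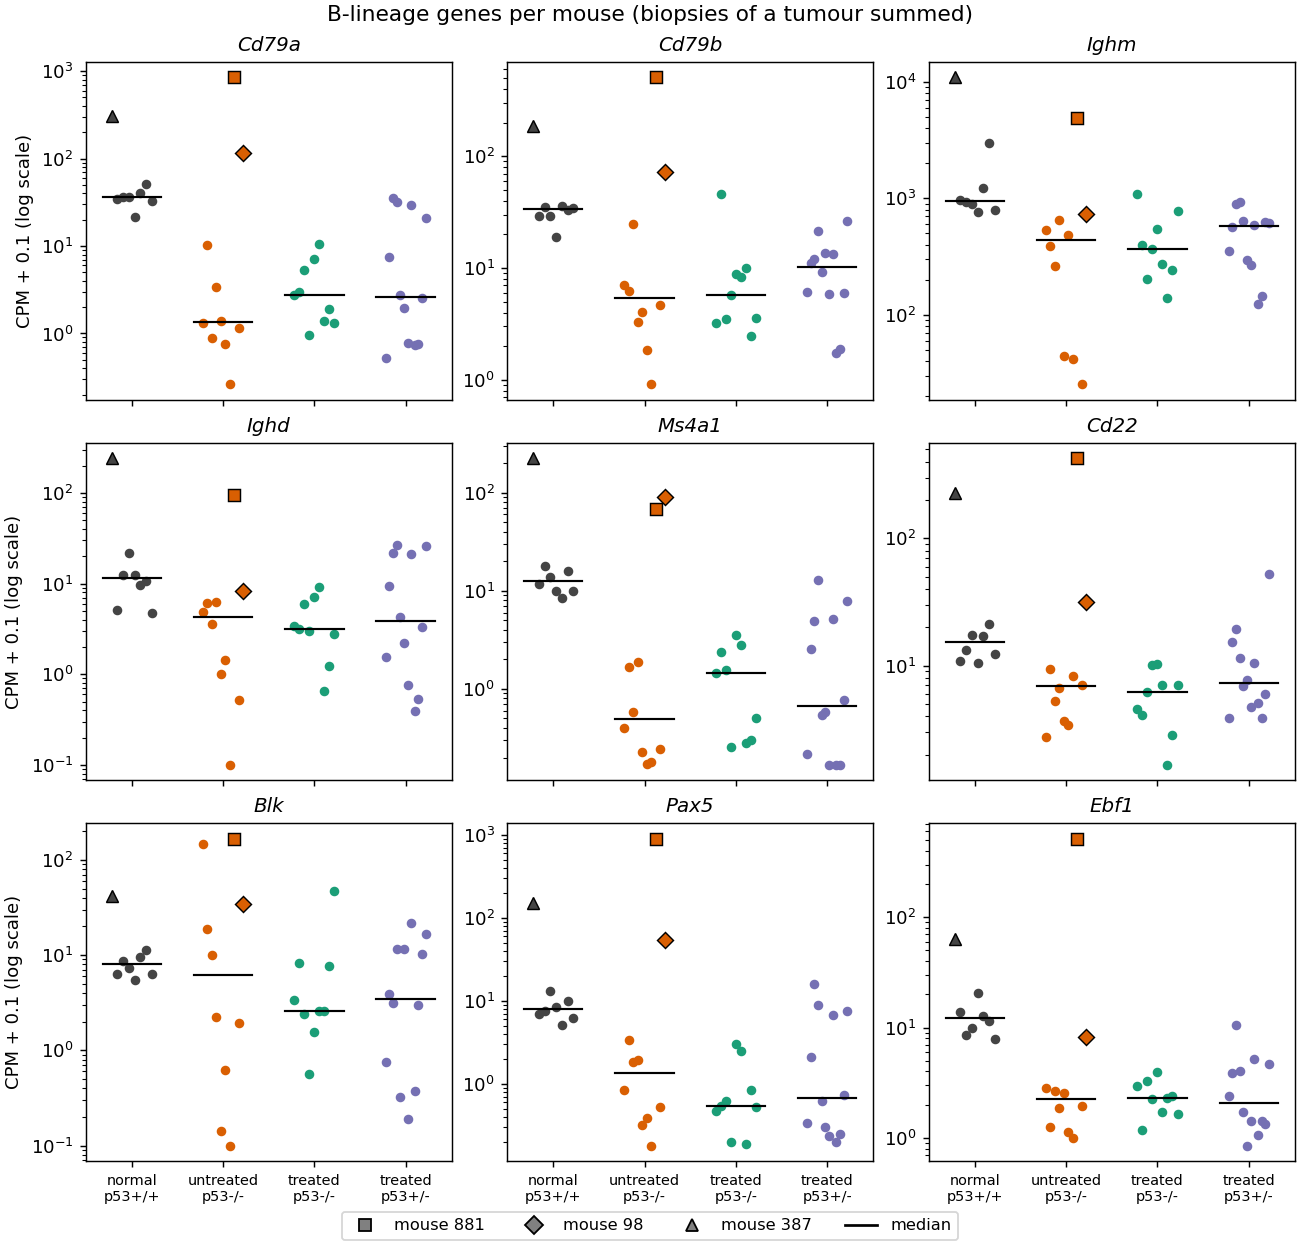
Level of each of the 9 B-lineage genes in every mouse, in CPM plus the small constant on the log axis, by group. Each point is a mouse with its biopsies summed, and the line is the group median. For Cd79a, mouse 881 (846 CPM) and mouse 98 (114 CPM) stand above the other lymphomas, and mouse 387 (304.5 CPM) above the other normal thymuses.

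The heavy-chain constant regions behaved differently from the signalling pair. Ighm (ENSMUSG00000076617, chr12:113418558-113422730, minus strand) encodes the mu chain of the first receptor made, and had levels of 762, 950 and 10910 CPM (lowest, median, highest) in normal thymus. The median was 438, 368 and 576 CPM in the 3 lymphoma groups, and the lymphoma range ran from 25.1 CPM in mouse 899 to 4908 CPM in mouse 881. Ighm was below every normal thymus in 26 of 31 lymphomas, yet its median over all 31 was still 397 CPM. Ighd (ENSMUSG00000104213, chr12:113406604-113416324, minus strand), the delta chain of mature naive B cells, had a median of 11.5 CPM in normal thymus and 4.17, 3.07 and 3.73 CPM in the 3 lymphoma groups. Its counts were 0 in mouse 643, which allows up to 0.243 CPM, and the lymphoma and normal ranges overlapped in all 3 groups.

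The surface proteins Ms4a1 (CD20, ENSMUSG00000024673, chr19:11249675-11266241, minus strand) and Cd22 (an inhibitory co-receptor, ENSMUSG00000030577, chr7:30865402-30880342, minus strand) differed in how far the lymphomas fell below normal thymus. Ms4a1 had levels of 8.31, 12.6 and 225 CPM in normal thymus and medians of 0.389, 1.36 and 0.573 CPM in the 3 lymphoma groups. It was below every normal thymus in 28 of 31 lymphomas. The exceptions were mouse 98 at 90.7 CPM, mouse 881 at 68.7 CPM and the treated p53+/- tumour of mouse 280 at 12.9 CPM. Cd22 had levels of 10.4, 15.1 and 226 CPM in normal thymus, and its lymphoma medians of 6.76, 6.12 and 7.20 CPM lay closer to normal. Mouse 881, at 427 CPM, was above every normal thymus. Mouse 98, at 31.4 CPM, and the treated p53+/- tumour of mouse 908, at 52.5 CPM, were above every normal thymus but that of mouse 387.

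Blk (ENSMUSG00000014453, chr14:63372836-63417037, minus strand), a Src-family kinase of the receptor, was the member least tied to the others. Its levels were 5.33, 7.90 and 41.9 CPM in normal thymus, and its medians were 6.04, 2.49 and 3.39 CPM in the 3 lymphoma groups. The untreated median, the highest of the 3, was 2.13 CPM without mouse 881 and 1.99 CPM without 881 and 98, which would make it the lowest. It lay below every normal thymus in 18 of 31 lymphomas and above every one in 3, or in 9 once mouse 387 is set aside. The 3 were mouse 881 (167 CPM), the untreated p53-/- tumour of mouse 120 (146 CPM) and the treated p53-/- tumour of mouse 870 (47.5 CPM). In the last pair there were 118 and 38.5 Blk counts per Cd79a count, against 0.138 to 0.247 in normal thymus, so Blk was high there without Cd79a.

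The transcription factors Pax5 (ENSMUSG00000014030, chr4:44524757-44710487, minus strand) and Ebf1 (ENSMUSG00000057098, chr11:44617317-45008091, plus strand) were low in most lymphomas. Pax5 had levels of 4.99, 7.92 and 152 CPM in normal thymus and medians of 1.25, 0.448 and 0.575 CPM in the 3 lymphoma groups, the first of which was 0.740 CPM without mouse 881 and 0.583 CPM without 881 and 98. Ebf1 had levels of 7.84, 12 and 63.8 CPM in normal thymus and medians of 2.14, 2.20 and 1.96 CPM. In mouse 881 Pax5 reached 903 CPM and Ebf1 515 CPM. In mouse 98 they parted, with Pax5 at 54.9 CPM, above every normal thymus but 387, and Ebf1 at 8.18 CPM, within the normal range.

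Levels of different genes were compared per kilobase of exon. In the median normal thymus Ighm stood at 504 CPM per kilobase, Cd79a at 24.9 and Cd79b at 23.7, while Cd22 at 3.0, Blk at 2.93, Ms4a1 at 2.03, Ebf1 at 1.23 and Pax5 at 0.895 CPM per kilobase were lower. In mouse 881 Pax5 was at 102 and Ebf1 at 52.8 CPM per kilobase, both above Ms4a1 at 11.1. In the median of the 29 lymphomas other than mice 881 and 98, Ighm remained at 206 CPM per kilobase, Cd79b was at 4.23 and Cd79a at 1.27.

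The tumour of mouse 881 had all 9 genes above the 7 normal thymuses other than 387. Relative to the median of those 7, Pax5 was 122-fold, Ebf1 45.4-fold, Cd22 32.4-fold, Cd79a 23.6-fold and Blk 23.2-fold higher. Cd79b was 15.25-fold, Ighd 8.80-fold, Ms4a1 5.93-fold and Ighm 5.26-fold higher. These are ratios of 1 mouse, with no replicate error of their own. The tumour had 4 biopsies, and the genes were high in each of them: Cd79a was 863, 1136, 720 and 519 CPM, Pax5 was 954, 1227, 549 and 675 CPM, and Ebf1 was 521, 688, 375 and 370 CPM. Cd3e in the same 4 biopsies was 1.27, 0.834, 1.41 and 3.68 CPM. Of 72 lymphoma libraries, these 4 were the ones whose summed B-lineage genes exceeded the 7 normal thymuses, and the same 4 were the ones whose Cd3e was below all 8.

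Other genes of the B lineage in mouse 881 covered more than 1 stage. Vpreb1 and Igll1, which form the surrogate light chain of B-cell precursors, were at 483 and 431 CPM, and Vpreb1 was 259-fold above the median of the 7 normal thymuses. Rag1, Rag2 and Dntt, which rearrange and diversify receptor genes in both lymphocyte lineages, were all below those 7. Of 19 other mature B genes 12 were above them and 3 were below, namely Fcer2a, Iglc1 and Iglc2. Of 20 genes of receptor signalling 14 were above, with Syk, Btk, Blnk, Plcg2 and Lyn among them, and 2, Cd81 and Dapp1, were below. Of 16 further B-lineage transcription factors 13 were above and 2, Ikzf1 and Id2, below. Of 8 plasma cell genes Mzb1 and Irf4 were above the 7 normal thymuses, and 3, Jchain, Tnfrsf17 and Xbp1, were below. Jchain, the joining chain of secreted antibody, was at 4.35 CPM.

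**Figure D2:**
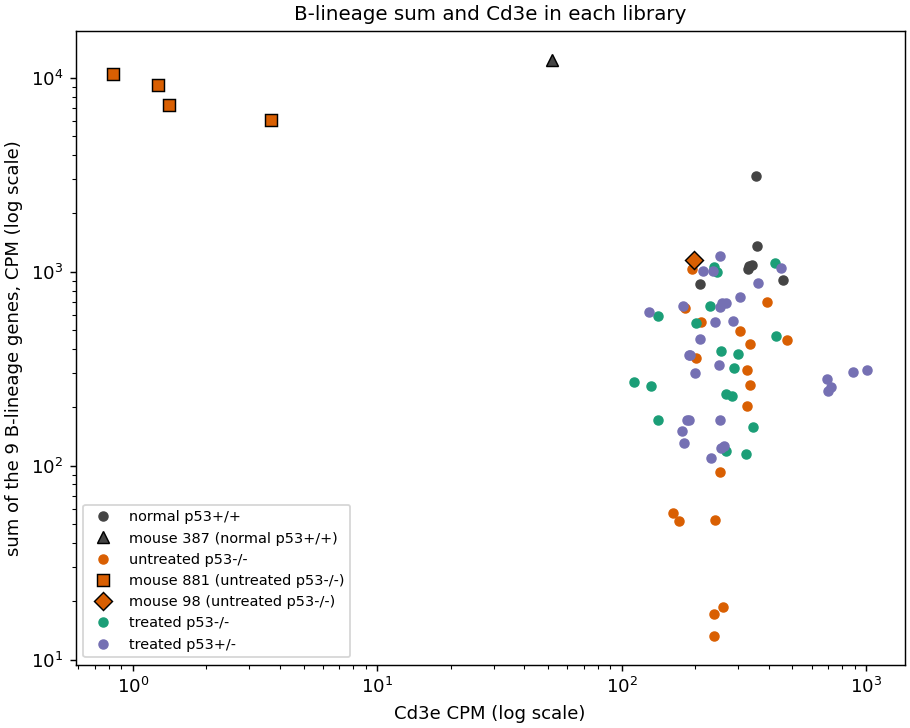
Summed level of the 9 B-lineage genes (vertical, CPM) against Cd3e (horizontal, CPM) in each library, both on log axes, coloured by group. The 4 biopsies of mouse 881 sit at Cd3e 0.834 to 3.68 CPM, apart from the other lymphomas, and the normal thymus of mouse 387 at Cd3e 51.9 CPM.

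The tumour of mouse 98, a single biopsy, had 6 of the 9 genes above the 7 normal thymuses and kept T-lineage expression. Ms4a1 was 7.83-fold, Pax5 7.43-fold, Blk 4.75-fold and Cd79a 3.19-fold above their median, whereas Ebf1 and Ighm were at 0.720 and 0.790 of it. Cd3e was 197 CPM and the T-lineage sum 10180 CPM, below the 7 normal thymuses other than 387 and within the 4218 to 14260 CPM of the lymphomas other than 881. Of the 18 T-lineage genes 10 were below those 7 and 2, Zap70 and Tcf7, above. Of 19 other mature B genes 10 were above the 7 normal thymuses and 3, Cr2, Fcer2a and Igkc, were below. Those 19 genes summed to 796 CPM, under the 906 CPM of the lowest of the 7, and the surrogate light chain gene Igll1 was under the floor of 0.227 CPM that 3 counts make. The normal thymus of mouse 387 also had all 9 genes above the other normal thymuses, along with 18 of 19 other mature B genes. Its Ighm, Igkc and Jchain levels were 10910, 12990 and 1123 CPM, against 4908, 1237 and 4.35 CPM in mouse 881.

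V segment use was not among the values by which the genes were chosen, though it can be scored only where immunoglobulin counts allow. The share of all Igkv counts held by the most counted Igkv gene measures how far a library is led by 1 light chain, and mice with fewer than 100 Igkv counts were left out. It was 9.56% ± 4.69 in normal thymus (SD, n = 8), 30.6% ± 34.0 in untreated p53-/- lymphomas (n = 7), 12.1% ± 4.76 in treated p53-/- lymphomas (n = 8) and 16.0% ± 8.16 in treated p53+/- lymphomas (n = 10). Two-sided exact permutation tests of the means against normal thymus gave p = 0.107, 0.316 and 0.0341, or 0.161, 0.316 and 0.102 after Benjamini-Hochberg adjustment over the 3 comparisons, so no group differed after adjustment. Without mice 881 and 98 the untreated mean was 11.2% (exact permutation p = 0.536). These mice had the highest shares of their group and were left out after the data were seen, so the smaller difference follows from that choice.

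The untreated mean rested on those 2 mice. In mouse 98 the segment Igkv14-126 held 90.7% of 1428 Igkv counts (95% Wilson interval 89.1 to 92.1%) and Ighv11-2 held 92.6% of 1223 Ighv counts. In mouse 881 Igkv4-72 held 67.6% of 21427 Igkv counts and Ighv1-55 held 97.2% of 15761 Ighv counts. Over its 4 biopsies the same Ighv1-55 held 98.2, 96.9, 97.8 and 96.1%, and Igkv4-72 held 53.6, 73.3, 65.5 and 68.3%. The normal thymus of mouse 387, with 58134 Igkv counts, had no such leader: its top Igkv gene held 14.5% and its top Ighv gene 12.5%. The depth differed between mice, since normal thymuses had at least 1749 Igkv counts and all 8 treated p53-/- lymphomas scored here had fewer than 1000. Wilson intervals cover counting error only, and reads shared between similar V segments make the shares uncertain.

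**Figure D3:**
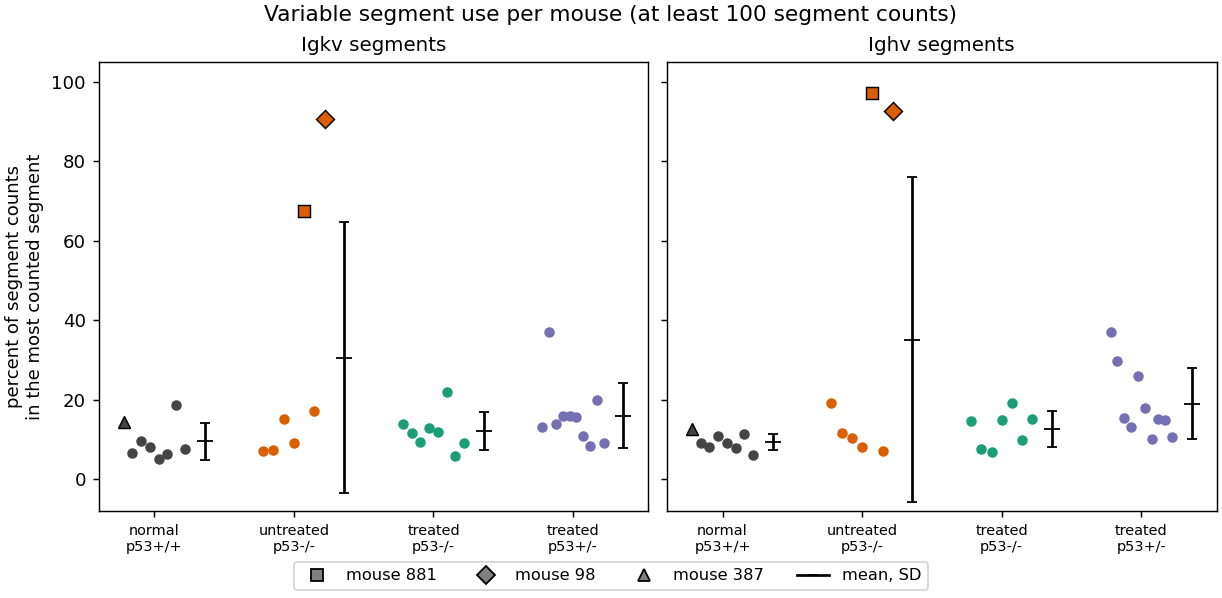
Percent of Igkv counts (left) and of Ighv counts (right) in the most counted gene of each mouse (points), with group mean and SD, for mice with at least 100 segment counts. On the left, mouse 98 (90.7%) and mouse 881 (67.6%) stand above the other untreated p53-/- lymphomas, and mouse 25 (37.1%) above the other treated p53+/- lymphomas.

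Among light-chain constant regions, Igkc made up 88.9 to 97.6% of light-chain constant counts in normal thymus and 71.5% in mouse 98, the lowest of the lymphomas that could be scored. In the treated p53+/- tumour of mouse 25, Igkv10-96 held 37.1% of Igkv counts and Ighv10-1 held 37.1% of Ighv counts, while Cd79a was 7.44 CPM, below every normal thymus.

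Most lymphomas had far more Ighm than their Cd79a would accompany in normal thymus. Normal thymuses had 24.0 to 58.2 Ighm counts per Cd79a count, with a median of 29. The ratio was 5.80 in mouse 881 and 6.44 in mouse 98, both below that range, and had a median of 148 in 28 other lymphomas, with a maximum of 831 in the treated p53+/- tumour of mouse 24. In that tumour Ighm was 356 CPM, Cd79a 0.428 CPM and Cd3e 188 CPM. There were 9.61 to 40.9 Ighv counts per 100 Ighm counts in normal thymus, median 15.2, and 0.558 to 44.9 in lymphomas, median 4.59. Ighv counts were not split by rearrangement or by the constant region joined to them, and the source of the Ighm was not tested. Gene-level counts do not separate transcripts of the unrearranged Ighm locus from those of a rearranged one.

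**Figure D4:**
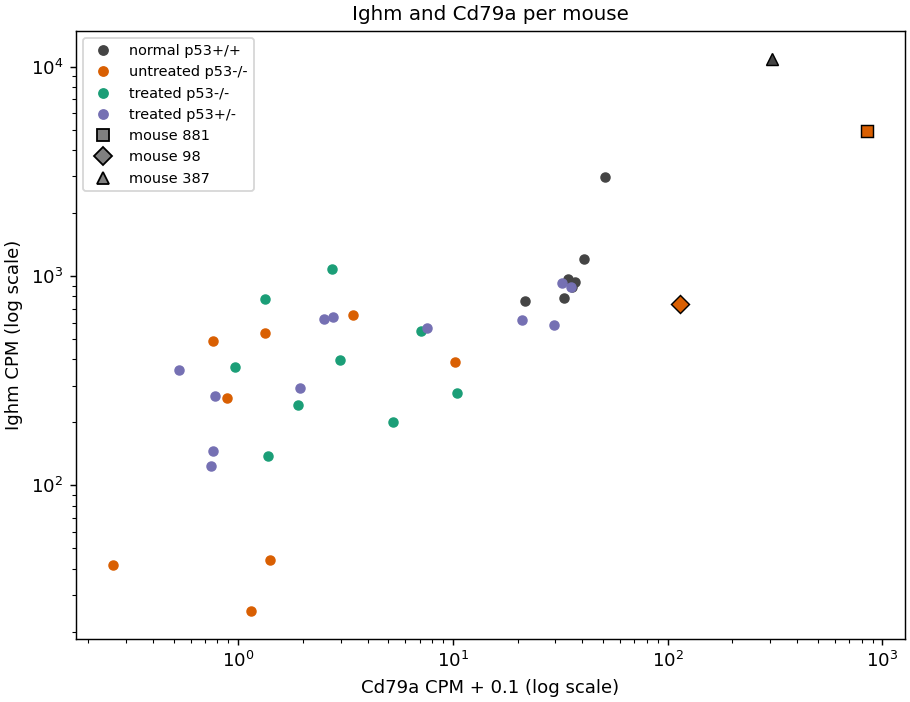
Ighm (vertical, CPM) against Cd79a (horizontal, CPM) per mouse on log axes, by group. Normal thymuses lie at 24.0 to 58.2 Ighm counts per Cd79a count, mice 881 and 98 at 5.80 and 6.44, and most other lymphomas higher.

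Against normal thymus, edgeR's quasi-likelihood test over 17843 genes, with sex as a covariate and Benjamini-Hochberg adjustment, called 0, 8 and 6 of the 9 genes lower in the 3 lymphoma groups. These contrasts use the levels by which the genes were chosen, so the calls are a description. The share of all tested genes called lower was 17.5, 26.7 and 25.3%, and the share called higher was 23.2, 25.4 and 25.6%. The 3 contrasts share the same 8 normal thymuses. No member was called higher. In the untreated group no member passed an unadjusted p under 0.05, beside 8686 of 17843 genes. DESeq2 gave an adjusted p for only 2 of the 9 genes, Ighd and Blk, and none for the other 7. It called Ighd lower in both treated groups, beside 6392 and 6123 genes lower of 26665. Its estimates were negative for 8, 9 and 9 of the 9 genes.

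In treated p53-/- lymphomas the log2 fold change was -4.33 ± 1.34 for Cd79a (SE, edgeR adjusted p = 0.00699), -5.03 ± 1.55 for Pax5 (adjusted p = 0.00708), -4.73 ± 1.38 for Ms4a1 (adjusted p = 0.00440) and -2.58 ± 0.72 for Ighm (adjusted p = 0.00288). Ebf1 was -3.11 ± 1.02, Cd22 -3.02 ± 0.92, Ighd -3.52 ± 1.12 and Cd79b -2.63 ± 0.97, with adjusted p from 0.0066 to 0.0224, and Blk was -0.62 ± 1.06 (adjusted p = 0.644). In treated p53+/- lymphomas the called genes were Ms4a1 at -3.74 ± 1.14, Pax5 at -2.96 ± 1.22, Cd79a at -2.70 ± 1.09, Ebf1 at -2.64 ± 0.90, Ighm at -2.36 ± 0.64 and Cd79b at -2.36 ± 0.83, with edgeR adjusted p from 0.00253 to 0.0412. Ighd, Cd22 and Blk were not called, at -2.15 ± 0.94, -1.90 ± 0.83 and -0.81 ± 0.99. The median over the 9 genes was -3.11 and -2.36 in these groups, beside -0.04 and 0.00 over all tested genes.

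Leaving out mouse 387 made these falls smaller. The median over the 9 genes was then -1.52 in the treated p53-/- group and -1.09 in the treated p53+/- group, beside 0.105 and 0.151 over all genes. In the former Cd79a was -3.13 ± 1.23, Ms4a1 -3.10 ± 1.23, Pax5 -3.02 ± 1.40, Ebf1 -2.18 ± 0.99, Cd79b -1.52 ± 0.87, Ighm -1.33 ± 0.67, Ighd -1.14 ± 0.93 and Cd22 -0.96 ± 0.78, and Blk was 0.35 ± 1.14. In the latter Ms4a1 was -1.98 ± 1.11, Ebf1 -1.66 ± 0.93, Cd79a -1.33 ± 1.11, Cd79b -1.14 ± 0.80, Ighm -1.09 ± 0.63 and Pax5 -0.81 ± 1.28, while Ighd, Cd22 and Blk were 0.40 ± 0.93, 0.07 ± 0.73 and 0.09 ± 1.05.

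In untreated p53-/- lymphomas, 4 of the 9 estimates were negative with every mouse kept, and 8 were without mouse 881. Pax5 was 2.23 ± 1.55 and Ebf1 1.66 ± 1.09 with it (edgeR adjusted p = 0.255 and 0.226). Without mouse 881 they were -2.17 and -2.69, 6 of the 9 genes were called lower and 18.7% of all tested genes were. Without mice 881 and 98, 8 of the 9 were called lower, beside 17.8% of all genes, and Cd79a was -4.79. Mice 881 and 98 were left out after their high levels of these same genes were seen. Calls and counts without them follow in part from that choice and are a description. The shares over all genes are no like comparison there, since the mice were not picked on other genes. Every untreated lymphoma but those of mice 881 and 98 lay below every normal thymus for 6 of the 9 genes, Cd79a, Pax5, Ms4a1, Cd22, Ebf1 and Ighm, beside 6.81% of all genes. With all 10 untreated lymphomas the count was 0 of 9 beside 4.92%, in treated p53-/- lymphomas it was 5 of 9 beside 9.33% and in treated p53+/- lymphomas 0 of 9 beside 6.56%.

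The calls against normal thymus also depended on mouse 387. Without it 2 of the 9 genes, Cd79a and Ms4a1, were called lower in treated p53-/- lymphomas beside 20.8% of all genes. In treated p53+/- lymphomas 0 were called lower, beside 18.4%, and 0 were called higher. There 0 passed an unadjusted p under 0.05, beside 9515 of 18043 genes. In untreated p53-/- lymphomas Pax5 was called higher, beside 4671 of 18043 genes, and 0 were called lower, beside 14.4%. Leaving out mice 387, 881 and 98 together gave 7, 6 and 1 genes called lower in the 3 lymphoma groups, beside 14.7, 21.3 and 18.9% of all genes, with Ebf1 called in each.

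Fat and epithelial genes moved with these contrasts. All 8 fat genes were called lower in each of the 3 lymphoma groups, with list median log2 fold changes of -6.68, -7.29 and -6.98, and 4, 6 and 5 of 7 thymic epithelial genes were called lower. Of the 18 T-lineage genes 4, 2 and 3 were called lower and 1, 2 and 2 higher, Zap70 among the latter each time. The shares of all tested genes were 17.5, 26.7 and 25.3% lower and 23.2, 25.4 and 25.6% higher. Without mouse 387 all 8 fat genes were still called lower in each group, as were 4, 6 and 6 thymic epithelial genes. There 5, 2 and 3 T-lineage genes were called lower, beside 14.4, 20.8 and 18.4% of all genes. Only Zap70 was called higher in each group, beside 4671, 5013 and 4977 of 18043 genes. The part of these tissues in the fall of the B-lineage genes was not tested.

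Between lymphoma groups no gene was called among 16389 tested by edgeR, so the share called was 0% in each of the comparisons. The comparisons were treated minus untreated p53-/-, then the treated p53+/- group minus the treated p53-/- one, then minus the untreated one. Genes at an unadjusted p under 0.05 numbered 1917, 863 and 1037, of which 6, 0 and 7 were B-lineage genes. For Pax5 the difference of treated minus untreated p53-/- lymphomas was -6.88 ± 1.79 (edgeR adjusted p = 0.234), and it was -2.51 without mouse 881 and -0.47 without 881 and 98. DESeq2 called 72, 22 and 12 genes, none of them among the 8 B-lineage genes it gave an adjusted p. Without mouse 881 the unadjusted B-lineage counts were 1, 1 and 0, beside 1700, 894 and 896 of 16187 genes. The medians over the 9 genes were then -0.66, 0.82 and -0.16. Without mice 881 and 98 the counts were 0, 3 and 5, beside 1775, 864 and 959 of 16478 genes. Those mice were left out after their high levels were seen, and the direction turned in the comparisons with the untreated group. The median over the 9 genes went from -2.76 to 0.28 for treated minus untreated p53-/- lymphomas and from -2.52 to 1.64 for the treated p53+/- group minus the untreated one.

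Other genes of the pathway were given by list, to be read beside the 17.5, 26.7 and 25.3% of all tested genes called lower and the 23.2, 25.4 and 25.6% called higher. Of 20 genes of receptor signalling, 12 were called lower in treated p53-/- lymphomas, among them the kinases Syk, Btk and Lyn, and 0 higher. In treated p53+/- lymphomas 10 were called lower and 1, the inhibitory receptor Fcgr2b, higher, and in untreated p53-/- lymphomas 2 were lower and 1, Fyn, higher. Several of these, such as Lyn and Syk, are also expressed in myeloid cells. Of 16 B-lineage transcription factors 6 were called lower in each treated group, Pou2f2, Bach2, Irf8, Bcl11a and Mef2c in both, while Tcf3 and Ikzf1, which T-lineage cells use too, were called higher in all 3 lymphoma groups. Of 19 other mature B genes 7, 13 and 15 were called lower in the 3 lymphoma groups, with Igkc, Iglc1, Iglc2, Iglc3, Cr2, Fcer2a and Bank1 in all 3.

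These list counts also rested on mouse 387. Without it 0, 5 and 1 of the 20 receptor signalling genes were called lower in the 3 lymphoma groups and 3, 1 and 1 higher. All the counts here are to be read beside 14.4, 20.8 and 18.4% of all genes lower, and 4671, 5013 and 4977 of 18043 genes higher. Syk was still called lower in treated p53-/- lymphomas, Btk and Lyn were not, and Fcgr2b was called higher in all 3 groups. Of the 16 transcription factors 0, 3 and 1 were called lower, with Bcl11a in both treated groups, and Tcf3 and Ikzf1 were again called higher in all 3 lymphoma groups. Of the 19 other mature B genes 5, 10 and 5 were called lower and 3, 0 and 0 higher, with Fcer2a, Iglc1, Iglc2 and Iglc3 lower in all 3.

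Biopsies of the same tumour differed in their B-lineage levels. Over the 13 tumours with several biopsies, the ratio of the highest to the lowest biopsy had a median of 1.94 and a maximum of 6.97 for the sum of the 9 genes, beside 1.16 and 1.53 for the T-lineage sum. For Cd79a it was 5.03 in the 9 tumours whose biopsies all passed the floor of 3 counts, and for Cd79b 2.27. The widest Cd79a ratio was 71.2, in the treated p53+/- tumour of mouse 908, where 4 biopsies had 2.53, 0.744, 28.8 and 53 CPM. Cd22 in those biopsies was 19.8, 34.3, 50.6 and 112.9 CPM, while Cd3e was 242, 258, 360 and 236 CPM. Other tissue differed too. The biopsy highest for Cd79a had the lowest T-lineage sum of the 4, 7997 CPM where the highest biopsy had 10750 CPM. Its fat genes summed to 444.9 CPM, the highest of the 68 lymphoma libraries other than those of mouse 881. The part of these tissues was not tested. The lowest Cd79a ratio, 2.19, was that of mouse 881.

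A single biopsy could also stand above the others of its tumour. In the treated p53+/- tumour of mouse 884, the 4 biopsies had Cd79a at 61.3, 7.15, 8.52 and 10.7 CPM and Blk at 54.0, 1.05, 1.58 and 0.383 CPM, with Cd3e between 191 and 253 CPM. The first of these biopsies was the highest for all 9 genes, with Ighd at 42.5 CPM where the lowest biopsy had 5.44 CPM, and for the T-lineage sum, whose ratio of highest to lowest was 1.53. In the treated p53-/- tumour of mouse 870 Blk was 136, 7.19, 20.8 and 31.1 CPM. The Ighm ratio was widest, at 42.4, in the untreated p53-/- tumour of mouse 899, where the biopsies ran from 1.69 to 71.7 CPM.

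**Figure D5:**
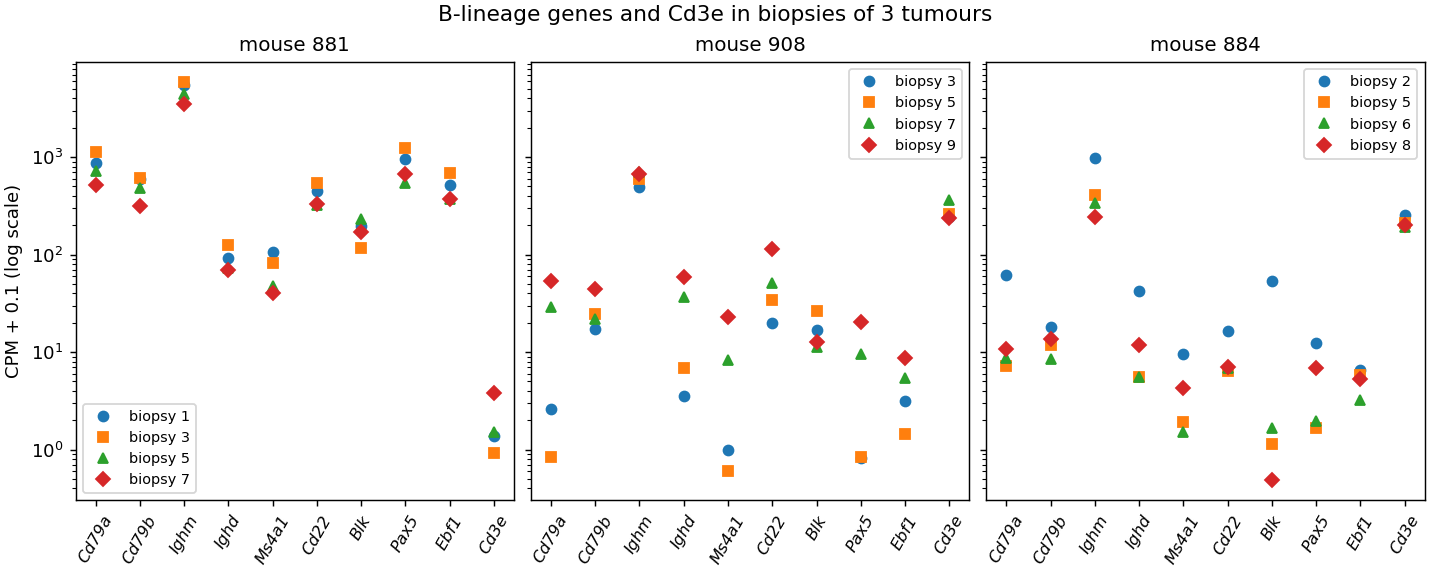
Level of the 9 B-lineage genes and Cd3e in each biopsy (points) of the tumours of mice 881, 908 and 884, in CPM plus the small constant on the log axis. In mouse 908 Cd79a runs from 0.744 to 53 CPM and Cd3e from 236 to 360 CPM. The T-lineage sum there, not drawn, runs from 7997 to 10750 CPM and is lowest in the biopsy highest for Cd79a. In mouse 881 every biopsy has Cd79a at 519 CPM or more.

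Across the 31 lymphomas the genes whose log2 CPM pattern was most like a member's were listed, as a description with no test. These points share depth and 1 extreme tumour. Siglecg was among the 3 genes most like Cd79a, at 0.954, Pax5, at 0.948, Ms4a1, at 0.929, and Cd79b, at 0.784. The highest correlation was 0.928 for Ebf1 (Dennd5b), 0.903 for Cd22 (Wdfy4), 0.891 for Ighd (Iglc3), 0.832 for Cd79b (Bcl11a), 0.791 for Blk (H2-DMb2) and 0.722 for Ighm (Mzb1). Without mouse 881 the first gene was another for 5 members: Csf1r, a macrophage receptor, at 0.831 for Cd22, Ccl22 at 0.804 for Blk, Gata6 at 0.782 for Ebf1, A530040E14Rik at 0.732 for Cd79b and Gm14296 at 0.696 for Ighm. Within the list, Cd79a correlated with Ms4a1 at 0.946 and with Pax5 at 0.943, and Cd22 with Blk at 0.351, which was 0.138 without mouse 881 and 0.05 without 881 and 98.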

How the data were processed

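Bulk RNA sequencing libraries of 31 lymphomas (72 libraries) and 9 normal thymuses were analysed from 1 gene table. The authors deposited RSEM expected counts per gene, 14.25% of which were not whole, and the submitters' processing notes name CASAVA 1.8, fastp, STAR 2.7.2b, RSEM 1.1.17 and mm10, with no role or order. Strandedness is not given in the sources used here, so antisense reads cannot be told apart.

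Expected counts were rounded, biopsies were summed per mouse, and CPM was taken over all 51826 genes. The mouse was the replicate, and same-group mice are separate animals. Calls used edgeR 4.0.16 in R 4.3.3 (TMM scaling, filterByExpr, quasi-likelihood test, sex as covariate, adjusted p under 0.05), checked on simulated data, with DESeq2 1.42.0 as an alternative. Likeness used log2 CPM with a prior count of 2, for genes with a mean of at least 1 CPM. GENCODE M21 coordinates (GRCm38) were joined to 99.63% of IDs. RSEM divides reads that fit several genes, so V segment shares are uncertain.

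The 9 genes and all gene lists were chosen with earlier results of these data known. The genes named were the 9 members, list genes whose role the text states, and genes from the 3 most like each member, of which 1 is not reported here. Alternatives were another tool, no filter, no scaling, no sex covariate, 1 biopsy per tumour, only the groups compared, the p53+/- normal thymus added, and mice left out. The mice 881 and 98 were left out by choices made after seeing the data.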

Additional observations from a re-analysis of the deposited data

Results flagged for a closer look

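A single mouse stood far from the others of its group in 12 of 34 groups of values tested with Dixon's gap criterion, which chance meets in about 1 of 20 independent groups. Of the 12, 11 were levels of the 9 genes or their mean, which are strongly related and were used to choose the genes, so the count is not read against that rate.

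The normal thymus of mouse 387 was the highest of 8 in 9 of these. On the log2 CPM scale, Cd79a was 8.43 (next normal thymus 5.24), Cd79b 7.73 (4.9), Ighm 13.6 (11.1), Ighd 8.11 (4.19) and Ms4a1 8.0 (3.95). Cd22 was 8.0 (3.97), Blk 5.58 (3.05), Pax5 7.43 (3.48) and the mean over the 9 genes 8.12 (4.5). Its fat genes were also high and its T-lineage genes low, and their part in these values was not tested.

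Among untreated p53-/- lymphomas, mouse 881 stood apart for Cd22 at 8.68 (next 4.92) and Ebf1 at 8.95 (next 2.99), in log2 CPM. Among treated p53+/- lymphomas, mouse 25 stood apart for its leading Igkv gene, Igkv10-96, with 37.06% of Igkv counts (next 19.81%).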

How the results depend on the processing

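The number of the 9 genes called against normal thymus changed as follows. In untreated p53-/- lymphomas (0 called) it was 1 without mouse 387 (Pax5, higher, beside 4671 genes called higher and 2596 lower of 18043), and the others were all lower: 1 with no sex covariate (Ighm, beside 3375 genes lower of 17843), 6 without 881 (3324 of 17758), 8 without 881 and 98 (3156 of 17725), and 7 without 387, 881 and 98 (2645 of 17935). The calls in the treated groups were all lower. In treated p53-/- lymphomas (8 called) it was 1 by DESeq2 (beside 6392 genes lower of 26665), 2 without 387 (3751 of 18043) and 6 without 387, 881 and 98 (3812 of 17935). In treated p53+/- lymphomas (6 called) it was 1 by DESeq2 (beside 6123 genes lower of 26665), 0 without 387 (3322 of 18043) and 1 without 387, 881 and 98 (3384 of 17935). It was 4 with no filter on low counts (5896 of 38749) and 7 with only the 2 groups (4178 of 16654). It was 8 with no sex covariate (4547 of 17843), with 1 biopsy per tumour (4240 of 17082), without 881 (4562 of 17758) and without 881 and 98 (4548 of 17725). The other alternatives left the counts as they were. DESeq2 gave an adjusted p for 2 of the 9 genes, so its counts show no lost call, and its single call was Ighd in both treated groups. Among lymphoma groups, where edgeR called 0 genes, DESeq2 called 72, 22 and 12, and treated p53+/- against untreated p53-/- gave 7 with no filter on low counts and 21 with no sex covariate, with 0 of the 9 genes among them.

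Of the log2 fold changes whose alternatives were compared (all 9 genes in the treated groups, and Cd79a, Pax5, Ebf1 and Ighd in the untreated one), these changed sign. In untreated p53-/- lymphomas, leaving out 881, then 881 and 98, then 387, 881 and 98 gave -2.58, -4.79 and -3.86 for Cd79a, -2.17, -4.11 and -2.75 for Pax5, and -2.69, -3.04 and -2.45 for Ebf1. DESeq2, which gave them no p, estimated -2.52, -2.23 and -2.65 for Cd79a, Pax5 and Ebf1. Ighd there became 0.24 without 387. Over all 9 genes the number with a negative estimate in the untreated group was 4, then 8 by DESeq2, 1 without 387, and 8 without 881 with or without 98. In treated p53-/- lymphomas Blk was 0.35 without 387, 0.19 with 1 biopsy per tumour and 0.33 without 387, 881 and 98. In treated p53+/- lymphomas, leaving out 387, then 387, 881 and 98, gave 0.40 and 0.40 for Ighd, 0.068 and 0.061 for Cd22, and 0.09 and 0.078 for Blk. The cause was not tested beyond the mice left out. Among these fold changes, another 172 alternative values kept their direction and their side of the threshold, 21 lost the call and 13 gained one.

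Without scaling factors, untreated p53-/- lymphomas had 3105 genes called higher and 3551 lower, against 4139 and 3131 with them, and DESeq2 gave 4605 and 4404. Without mouse 387 the median over all genes moved to 0.208, 0.105 and 0.151 (log2) in the 3 lymphoma groups, from 0.082, -0.044 and -0.001. The Igkv share kept its side of the threshold in 17 alternative values, and a minimum of 1000 Igkv counts left 0 treated p53-/- mice, so no value was computed there. Some values came close to the threshold. With 1 biopsy per tumour the adjusted p of the exact permutation test was 0.0527, 0.0653 and 0.0527 in the 3 lymphoma groups, from 0.161, 0.316 and 0.102. The mean log2 CPM over the 9 genes moved by less than the SD between mice in each alternative run. Leaving out mice 387, 881 or 98 could not move a mean by more than an SD that includes them, so those runs show no stability. The untreated p53-/- mean was 2.634 (SD 2.696), then 1.962 without 881 and 1.507 without 881 and 98. The normal mean was 4.708, and 4.22 without 387. Fold changes of single T-lineage genes are not reported here. No paired analysis was possible because the groups share no replicate numbers that pair mice. Depth limits the lowest levels, since 3 counts make 0.0304 to 0.599 CPM per mouse.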

Other observations

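The single untreated p53+/- normal thymus, that of mouse 819, had Cd79a at 60.4 CPM, Ighm at 1574 CPM, Ms4a1 at 26.6 CPM, Pax5 at 16.3 CPM and Cd3e at 336.5 CPM. Its fat genes summed to 133 CPM, below the 863 CPM of the lowest of the 7 p53+/+ normal thymuses other than 387. With 1 mouse there is no measure of spread.

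The summed level of the 9 genes reached 8437 CPM in mouse 881 and 12360 CPM in the normal thymus of mouse 387. Germinal centre genes did not follow the 9 genes in mouse 881. The 5 genes of that list summed to 13.7 CPM, within the 11.1 to 21.3 CPM of the 7 normal thymuses, with Gcsam below them. Mouse 98 had 38.4 CPM, with S1pr2 and Mef2b above the 7 and Gcsam below. The treated p53+/- tumour of mouse 266 had a higher sum, 65.3 CPM.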
